A study of Mus musculus with 2 samples.

Results

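The actin cytoskeleton genes described here are 42 genes, taken by symbol from a list of actins and the proteins that polymerise, cut, cap, bundle and anchor actin filaments. All 42 had a row in the authors' deposited table of 23235 genes, and 41 were tested there. The exception was Gsn, whose test failed. RNA was sequenced from mouse bone marrow progenitors (C57B6 strain) that carried 2 MIGR1 retroviruses, with HA-tagged Hoxa9 fused to ER in one and Flag-tagged Meis1 in the other. The ER portion, from an estrogen receptor, responds to 4-hydroxytamoxifen (4OHT) and keeps the fusion in the nucleus while the drug is present. Cells of both groups had been transformed in IL3 and 100 nM 4OHT. The 4OHT group then stayed for 72 h in 100 nM 4OHT, and the EtOH group spent the same 72 h in ethanol, the solvent, in which nuclear Hoxa9-ER is lost. Each group is 1 sample that the labels describe as replicates 1 and 2 together, so each gene has 1 value per group and no replicate error. Nothing says whether the replicates were separate cultures or animals.

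Actin is a soluble monomer that assembles into filaments with a fast-growing and a slow-growing end. Profilin and thymosins hold the monomers, the Arp2/3 complex starts branches when proteins of the WASP family activate it, and formins and Ena/VASP proteins lengthen filaments. Capping proteins stop growth and cofilin and gelsolin cut, while filamin, actinins and plastins tie filaments together and talin and vinculin couple them to integrins. In blood cells this machinery serves migration, adhesion and phagocytosis, and it is used heavily by neutrophils and macrophages.

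Levels are given as FPKM, sequenced fragments scaled to transcript length and library size, so that levels of different genes can be compared. Changes are log2((FPKM EtOH + 1)/(FPKM 4OHT + 1)), positive where EtOH was higher, and they understate the change of low genes. "Rose", "fell" and "called" are used of genes for which the authors' deposited table gives q = 0.05 or less. Over all genes FPKM came to 544802 in 4OHT and to 591496 in EtOH, and these sums are not read totals. Hoxa9 RNA itself was at 476 FPKM in 4OHT and 892 in EtOH, which does not report on where the fusion protein is. Of the markers of the labelled cells, Ptprc was at 33.9 and 64.5 FPKM, Kit at 7.39 and 10.1, Cd34 at 124 and 45.8, Flt3 at 14.5 and 0.239 and Myb at 164 and 127. Of these 5 progenitor markers, Ptprc rose and Cd34 and Flt3 fell. Markers of other cells were mostly low. T and B cell markers summed to at most 0.0818 FPKM, and the stromal genes Col1a1, Col1a2, Col3a1 and Myh11 were all under 1 FPKM, as were the endothelial genes Cdh5, Kdr and Tek. The stromal list summed to 429 FPKM in 4OHT and 223 in EtOH, nearly all of it Thy1, and the endothelial list to 244 and 236, nearly all of it Pecam1, 2 genes that blood cells also express. In the stromal list Thy1 fell from 418 to 217 FPKM and Pdgfrb from 7.99 to 1.74 FPKM, while Acta2 and Tagln did not pass. The 3 erythroid markers with a row summed to 4.64 and 2.33 FPKM. Megakaryocyte markers summed to 102 FPKM in 4OHT and 92.1 in EtOH, with Ppbp and Gp1bb under 1 FPKM. Late neutrophil markers (S100a8, S100a9, Ngp, Camp and Ltf) moved with the groups: all 5 rose, and their sum went from 51.3 to 16008 FPKM. Of 7 macrophage markers 4 rose and 1 fell, and their sum went from 244 to 138 FPKM. The part of these cell states in the actin results was not tested, and in such bulk RNA fewer cells of a type and less RNA per cell cannot be told apart.

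After 4OHT withdrawal many of the 42 actin cytoskeleton genes were higher and none of the 41 tested was called lower. Gsn, whose test failed, was lower without a call, at 708 FPKM in 4OHT and 288 in EtOH. Relatives outside the 42 are described after the members, and some of those relatives fell. Among 41 tested members the authors called 18 higher and 0 lower, and 23 were not called. In the whole table the shares were 12.0% of all 11865 tested genes higher and 10.5% lower. The median change over the 42 members was 0.29, and over all tested genes it was -0.05. With EtOH scaled to the 4OHT sum of FPKM these medians were 0.18 and -0.15. The largest rises were those of Actn1 and Lsp1, both over 2.5 on the log2 scale, followed by Capg, Tmsb4x, Cotl1 and Zyx. With q of at most 0.01 there were 13 members higher and 0 lower, against 9.41% and 6.68% of all tested genes. With a ratio of at least 1.5 required beside q of at most 0.05, 10 members were higher and 0 lower, against 9.89% and 7.23%. Abundant genes were called higher more often in the whole table. Among tested genes with a mean of at least 100 FPKM 17.4% rose, and of the 22 tested members at that level 10 rose. Between 10 and 100 FPKM 11.4% of all tested genes rose, and 8 of 17 members. The members with a mean under 10 FPKM, Wasl and Pls3, did not pass. These levels are means of both groups, so a gene that rose can reach a higher level through its EtOH value. Actn1, at 2.66 FPKM in 4OHT and 23.4 in EtOH, was counted between 10 and 100 FPKM. Cotl1, at 99.3 and 242 FPKM, was counted at 100 or more. The shares by level therefore do not separate level from change.

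**Figure D1:**
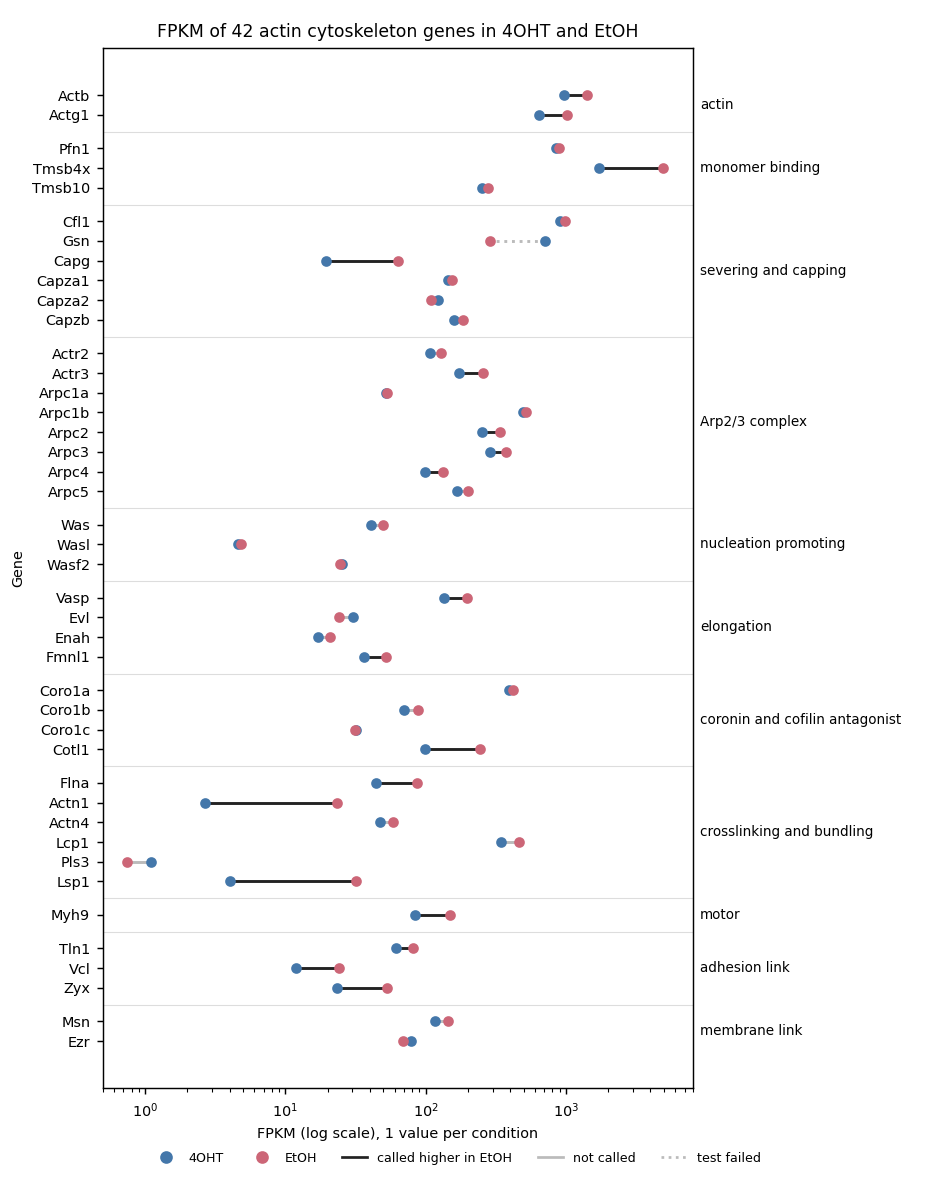
FPKM on a log axis of each of the 42 genes, ordered by role, with 4OHT in blue and EtOH in red and 1 value per condition. Black lines join the 18 genes called higher in EtOH in the authors' deposited table, grey lines those not called, and the dotted line is Gsn, whose test failed; the longest black lines are those of Actn1 and Lsp1.

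Both cytoplasmic actins rose. Actb, the gene of beta-actin on chromosome 5 at 143664795 to 143668403 (mm9), went from 970 to 1403 FPKM, a log2 change of 0.53. The authors' deposited table lists q = 0.0484 for it, close to the threshold. Actg1, which encodes gamma-actin and lies on chromosome 11 at 120207004 to 120209798 (mm9), went from 643 to 1012 FPKM (log2 change 0.65), and the authors' deposited table lists q = 0.00372. Actb is a common reference gene for normalising RNA assays, and here it was 1.45 times as high in EtOH. The levels are those of highly expressed genes: Actb ranked 100 of 23235 in 4OHT and 79 in EtOH. Sequence shared with other genes bears on Actg1, since 37.4% of the 50-base stretches (words) in its transcripts recur in 23 further genes, among them the pseudogene Actg-ps1. For Actb that share was 9.12%.

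Actin genes are classic targets of serum response factor, which binds a sequence known as the CArG box and works with cofactors that sense free actin monomer. RefSeq promoters (GRCm38.p6, 250 bases before to 50 after a gene's start) were found for 38 of the 42 members, and the box (its usual consensus, which reads the same on both strands) was searched in them. Actb, Cotl1, Coro1b and Lsp1 had no promoter there, so whether they hold the box was not examined. The box occurred in the promoters of 3 of 38 members, or 7.89%, against 1.81% of the 27025 genes with a promoter in the table and 1.63% of its 32851 promoters. The 3 were Actg1, Vcl and Arpc4, each of which rose. Of all tested members 18 of 41 rose, and 3 genes are too few to compare with this. Of the 15 members called higher that had a promoter, 3 held the box. A link between the box and the changes was not tested. The promoters of these 3 genes are shown because they are the members found to hold the box. Each is given as the 250 bases before the start, 5′ to 3′ on the gene's strand, with the box in capitals. The Actg1 sequence is chr11:120348496-120348745 on the minus strand, that of Vcl chr14:20929148-20929397 and that of Arpc4 chr6:113377863-113378112, both on the plus strand.
Actg1: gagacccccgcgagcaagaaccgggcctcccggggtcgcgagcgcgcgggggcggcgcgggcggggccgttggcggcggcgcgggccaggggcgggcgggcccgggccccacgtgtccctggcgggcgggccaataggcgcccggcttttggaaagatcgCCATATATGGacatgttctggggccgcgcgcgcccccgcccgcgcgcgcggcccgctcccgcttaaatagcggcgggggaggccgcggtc
Vcl: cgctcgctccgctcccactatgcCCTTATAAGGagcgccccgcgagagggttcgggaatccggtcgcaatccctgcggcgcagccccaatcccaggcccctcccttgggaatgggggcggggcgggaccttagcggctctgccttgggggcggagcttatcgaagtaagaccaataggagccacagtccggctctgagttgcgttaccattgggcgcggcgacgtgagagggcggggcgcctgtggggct
Arpc4: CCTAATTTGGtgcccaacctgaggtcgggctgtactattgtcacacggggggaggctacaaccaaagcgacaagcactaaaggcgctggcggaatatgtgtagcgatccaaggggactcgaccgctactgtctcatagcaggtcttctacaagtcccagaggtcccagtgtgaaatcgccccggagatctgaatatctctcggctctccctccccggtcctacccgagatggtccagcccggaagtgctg
In Actg1 the box begins 90 bases before the start, in Vcl 227 and in Arpc4 250, at the edge of the window. A match describes these letters and is not a measured binding site. Srf itself was at 23.2 and 21.8 FPKM and its cofactor gene Mkl1 at 11.3 and 14.7, and neither passed: the authors' deposited table lists q = 0.765 for Srf and q = 0.109 for Mkl1.

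Among the 3 members that hold actin monomers, 1 rose. Tmsb4x, the gene of thymosin beta-4, the main monomer-sequestering peptide of blood cells, went from 1724 to 4894 FPKM (log2 change 1.505), and the authors' deposited table lists q = 2.07e-11. It moved from rank 50 to rank 5 of all genes and from 0.316% to 0.827% of the summed FPKM. Its close relative Tmsb10 was at 253 and 279 FPKM (log2 change 0.14) and did not pass. Tmsb10 shares 27.0% of its words with other genes, while Tmsb4x shares 0.00%. Pfn1, the gene of profilin, which feeds monomers to growing ends, was at 854 and 894 FPKM (log2 change 0.06) and did not pass. Its relative Pfn2, which is not a member, fell from 0.557 to 0.144 FPKM. Tmsb4x was the most abundant of the 42 members in both groups. The members together made up 1.81% of all FPKM in 4OHT and 2.47% in EtOH, and without Tmsb4x these shares were 1.49% and 1.64%.

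Of the 5 tested members that sever or cap filaments 1 rose. Capg, a calcium-dependent capping protein known from macrophages and granulocytes, went from 19.3 to 63.3 FPKM (log2 change 1.66), and the authors' deposited table lists q = 3.22e-13. Gsn, the gene of gelsolin, which cuts filaments and caps their fast-growing ends, was at 708 FPKM in 4OHT and 288 FPKM in EtOH. That is a log2 change of -1.30, the lowest of the 42, and it has no call because the authors' test of this gene failed. In the authors' deposited table the log2 fold change of Gsn is entered as 0, which does not match its own FPKM values. Cfl1, the gene of cofilin, which severs older filaments, was at 911 and 984 FPKM and did not pass. No gene of the heterodimeric capping protein passed. Capza1 was at 144 and 153 FPKM, Capza2 at 123 and 109 and Capzb at 159 and 185. Of these, Capza1 shares 64.4% of its words with other genes and Cfl1 18.3%, so their own levels are uncertain. The same limit holds for the members that rose and share over 10% of their words, Actg1, Actr3, Vcl and Arpc4.

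The 8 members that encode subunits of the Arp2/3 complex, the branch-forming nucleator, all had log2 changes above 0, except that Arpc1a and Arpc1b were below 0 when EtOH was scaled to the FPKM sum of 4OHT, and 4 of them rose. Actr3, an actin-related subunit, went from 172 to 256 FPKM (log2 change 0.57). Arpc2, which with Arpc4 forms the core that grips the mother filament, went from 251 to 338 FPKM (0.43), Arpc3 from 285 to 376 FPKM (0.40) and Arpc4 from 99.6 to 134 FPKM (0.42). Their q-values in the authors' deposited table were 0.00931 for Actr3, 0.0206 for Arpc2, 0.0279 for Arpc3 and 0.0213 for Arpc4, so Actr3 is the member of the complex that is called at 0.01. Actr2, the other actin-related subunit, was at 107 and 129 FPKM, and Arpc5 at 167 and 201 FPKM, and neither passed. The 2 genes of the ARPC1 subunit had the smallest log2 changes of the complex, 0.01 for Arpc1a and 0.07 for Arpc1b, and did not pass. The 2 subunit genes outside the 42 lay below 0: Actr3b, a low-level relative of Actr3, fell from 2.06 to 1.08 FPKM (log2 change -0.55), and Arpc5l was at 28.8 and 25.1 FPKM and did not pass. Levels of the 8 members were uneven, from 52.9 FPKM for Arpc1a to 518 FPKM for Arpc1b in EtOH. Actr3 shares 26.3% of its words with 2 other genes and Arpc1b 24.3% with 282. Arpc4 stands in 1 locus entry with Ttll3, at 4.47 and 6.02 FPKM, and the EtOH to 4OHT ratios of the pair were 1.34 and 1.35.

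None of the 3 nucleation-promoting members passed, and 2 of the 4 elongation members rose. Was, the Wiskott-Aldrich syndrome protein gene of blood cells, was at 40.7 and 49.4 FPKM, its widely expressed relative Wasl at 4.62 and 4.85, and Wasf2, a WAVE protein that drives the leading edge, at 25.2 and 24.5. Vasp, which protects growing ends from capping, went from 135 to 198 FPKM (log2 change 0.55), and the authors' deposited table lists q = 0.00128. Fmnl1, a formin of leukocytes, went from 36.4 to 51.7 FPKM (log2 change 0.49), for which the authors' deposited table has q = 0.00405. The Vasp relatives differed in sign and did not pass: Enah was at 17.0 and 20.7 FPKM and Evl at 30.5 and 24.3 FPKM. Evl had the lowest log2 change of all tested members, -0.32.

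None of the 3 coronin members passed. Coronins couple Arp2/3 branches to cofilin. Coro1a, the coronin of leukocytes, was at 394 and 418 FPKM, Coro1b at 70.1 and 88.3 and Coro1c at 32.0 and 31.2. Coro1b came nearest (q = 0.0835 in the authors' deposited table) and shares 10.9% of its words with Ptprcap. Of the coronins outside the 42, Coro7 fell from 48.4 to 34.9 FPKM (log2 change -0.46), and Coro2a was at 89.2 and 70.2 FPKM and did not pass. Cotl1, a small protein that binds filaments and competes with cofilin, rose from 99.3 to 242 FPKM (log2 change 1.28). Its q-value is entered as 0 in the authors' deposited table.

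The crosslinking and bundling members held the largest changes of the 42. Actn1, an alpha-actinin that crosslinks filaments at adhesions, rose from 2.66 to 23.4 FPKM, 8.78 times as high in EtOH (log2 change 2.74). Lsp1, a leukocyte-specific filament-binding protein of neutrophils and macrophages, rose from 4.04 to 32.0 FPKM, 7.93 times as high (log2 change 2.71). Both have a q-value entered as 0 in the authors' deposited table. The Lsp1 locus entry, on chromosome 7 at 149646775 to 149701914 (mm9), also holds Tnnt3 and Gm14492, which were at most at 0.284 FPKM. Flna, filamin A, which makes orthogonal networks and binds integrins, rose from 44.4 to 87.2 FPKM (log2 change 0.96, with q = 1.30e-08 in the authors' deposited table). Actn4, the other non-muscle alpha-actinin, was at 47.5 and 58.1 FPKM and did not pass. Lcp1, the plastin of leukocytes, was at 342 and 465 FPKM, with a log2 change of 0.44, and did not pass (q = 0.0776 in the authors' deposited table). That change is larger than those of the called genes Arpc2, Arpc3, Arpc4 and Tln1, so the calls do not follow the size of the change alone. Pls3, a plastin of other tissues, was the lowest member, at 1.10 and 0.744 FPKM, and did not pass.

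The motor member and the 3 adhesion members, Tln1, Vcl and Zyx, rose, and the membrane linkers Msn and Ezr did not pass. Myh9, the heavy chain of non-muscle myosin IIA, the contractile motor of leukocytes, went from 83.6 to 148 FPKM (log2 change 0.82). Zyx, the gene of zyxin, a sensor of tension on adhesion-bound filaments, went from 23.4 to 53.1 FPKM (1.15). Vcl, vinculin, which reinforces the link between talin and actin, went from 11.9 to 23.96 FPKM (0.95), and Tln1, talin, which activates integrins, from 61.4 to 81.4 FPKM (0.40). Their q-values in the authors' deposited table were 2.33e-05 for Myh9, 4.44e-13 for Zyx, 1.14e-09 for Vcl and 0.043 for Tln1. Vcl shares 25.1% of its words with 1 other gene, Ap3m1. Msn, moesin, the main protein that ties cortical actin to the membrane in leukocytes, was at 117 and 145 FPKM, and its relative ezrin (Ezr) at 78.4 and 68.8 FPKM.

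**Figure D2:**
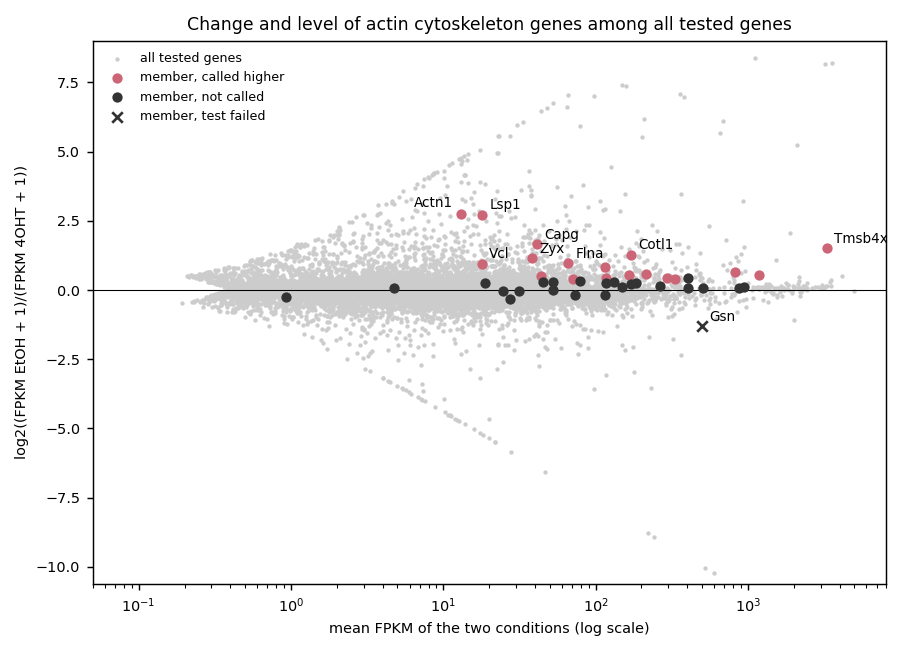
Log2 change of each tested gene (grey) against its mean FPKM on a log axis, with the members in red where called higher, black where not called and a cross for Gsn, whose test failed. Actn1 and Lsp1 lie at 2.74 and 2.71, Tmsb4x is the most abundant member, and Gsn stands alone below the other members at -1.30.

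The share of each gene in its family differed between the groups in some families and hardly in others. These shares compare FPKM between members of 1 family, leave out relatives that are not among the 42, and carry no test. Actn1 made up 5.31% of alpha-actinin FPKM in 4OHT and 28.7% in EtOH, so Actn4 was 17.8 times as high as Actn1 in 4OHT and 2.48 times in EtOH. Tmsb4x went from 87.2% to 94.6% of the 2 thymosins, or from 6.80 to 17.5 times the level of Tmsb10. Vasp went from 73.96% to 81.5% of the Ena/VASP family while Evl went from 16.7% to 10%, and Msn went from 59.95% to 67.8% of the pair of Msn and Ezr. Shares elsewhere were closer. Actb was 60.15% and 58.1% of the cytoplasmic actins, Arpc1b 90.4% and 90.7% of ARPC1, Coro1a 79.4% and 77.8% of the summed Coro1a, Coro1b and Coro1c, and Was 89.8% and 91.1% of Was and Wasl. Lcp1 was over 99% of the plastins in both groups. In all 10 families compared, the gene with the largest share was the same in both groups.

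**Figure D3:**
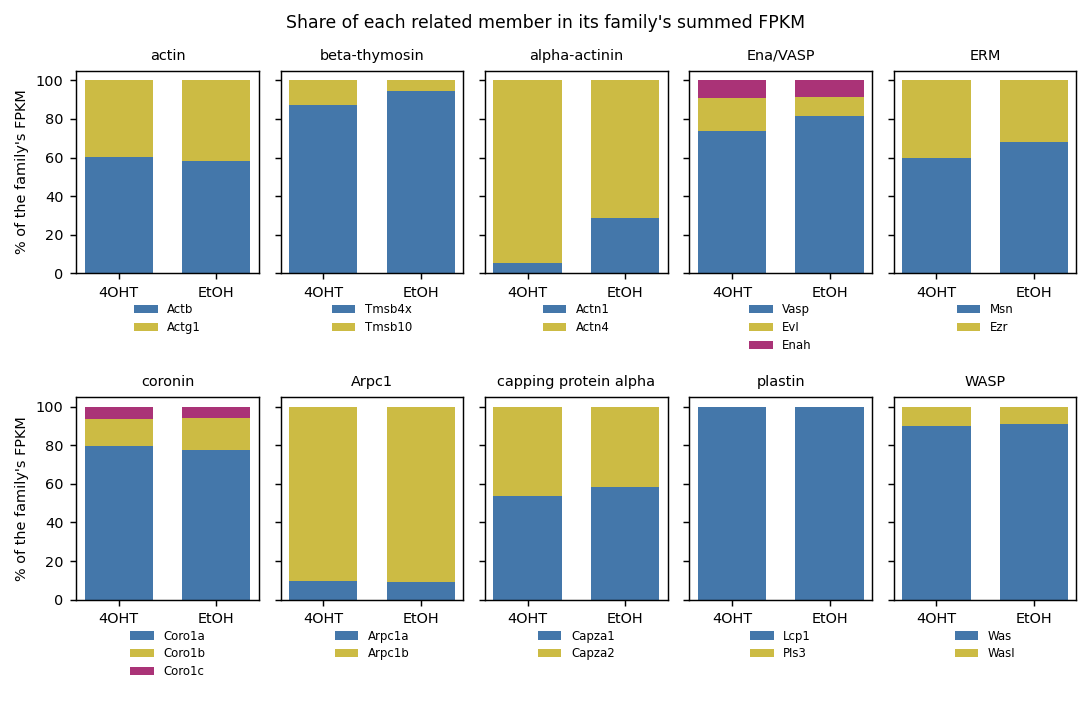
Stacked bars give the share (percent) of each related member in the summed FPKM of its family in 4OHT and EtOH, 1 value per condition and with no error. Actn1 grows from 5.31% to 28.7% of the alpha-actinins and Tmsb4x from 87.2% to 94.6% of the thymosins, while the actin and ARPC1 bars are nearly level.

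Other genes of the actin system were examined through 6 lists with 165 entries, all of which had a row. Of the 124 tested genes 36 rose (29%) and 17 fell (13.7%), with a median change of 0.13, beside 12.0% and 10.5% of all tested genes. Both directions occurred here, while none of the 41 tested members was called lower. Gsn, the member whose test failed, was at 708 FPKM in 4OHT and 288 in EtOH and has no call. Among myosins and their light chains 8 of 19 rose and 1 fell, with a median of 0.31. The membrane-linked motors Myo1d (3.56 to 15.03 FPKM), Myo1f (26.9 to 60.9 FPKM) and Myo1e (0.319 to 1.52 FPKM) rose, while their relatives Myo1c and Myo1g did not pass. Mylk, the myosin light chain kinase, fell from 12.3 to 3.50 FPKM.

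Of 43 other actin-binding genes 13 rose (30.2%) and 5 fell (11.6%), with a median of 0.04. Over all tested genes 12.0% rose and 10.5% fell, so the share that fell was near that of all tested genes. Dstn, destrin, a relative of cofilin, rose from 205 to 598 FPKM (log2 change 1.54), while Cfl1 did not pass. The gelsolin relatives Scin and Avil rose, from 2.93 to 8.24 and from 0.132 to 3.90 FPKM, levels far below those of Gsn. Other relatives of gelsolin, Flii, Vill and Svil, did not pass. Add3, an adducin, rose from 8.33 to 17.5 FPKM. Among other nucleation genes 7 of 31 rose (22.6%) and 4 fell (12.9%), the latter share again near the 10.5% of all tested genes. The formin Fmnl2 changed most, from 1.74 to 14.2 FPKM (log2 change 2.48). Cobl rose from 0.245 to 1.98 FPKM and Baiap2 from 3.39 to 7.70 FPKM, and Spire1 fell from 4.11 to 1.71 FPKM.

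Adhesion site proteins were split, with 8 of 24 higher (33.3%) and 6 lower (25%), beside 12.0% and 10.5% of all tested genes. Parvb, a parvin that links integrin complexes to actin, fell from 9.23 to 2.05 FPKM (log2 change -1.75), Csrp2 from 22.4 to 9.76 FPKM and Ablim1 from 26.0 to 13.9 FPKM, and the focal adhesion kinase relative Ptk2b rose from 24.3 to 41.2 FPKM. Of the 6 tested genes of Srf and its cofactors 0 rose and 1 fell, Elk3, from 11.7 to 5.72 FPKM. These genes are too few to compare with the shares of all tested genes. Among other actin isoforms, Acta2 of smooth muscle was at 1.53 and 1.92 FPKM and did not pass, and Acta1, Actc1 and Actg2 were not tested.

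**Figure D4:**
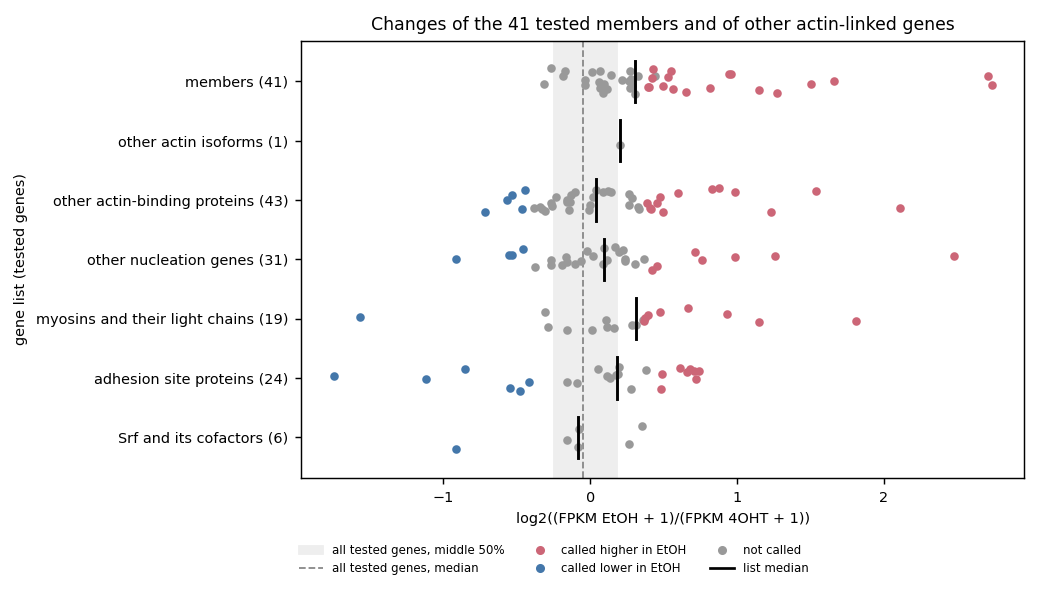
Each point is the log2 change of 1 tested gene in the 41 tested members and in 6 lists of other actin-linked genes, red where called higher in EtOH, blue where lower and grey where not called; vertical bars are list medians, and the band and dashed line give the middle 50% and median of all tested genes. The tested members have no blue point, and Gsn, whose test failed, is not drawn. The medians of the tested members (0.30), the myosins (0.31), the adhesion site proteins (0.185) and the 1 other actin isoform (0.21) lie right of the band, which ends at 0.18.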

How the data were processed

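RNA sequencing gave 1 sample per condition, each labelled as replicates 1 and 2. The mm9 build, Cuffdiff 2.0.2, Bowtie2 2.0.0.7 and CASAVA 1.8.2 are named, per the submitters' processing notes. The sources used here give no annotation, strand setting or way of combining replicates. Per the file headers, the authors deposited 1 FPKM value per condition and gene. They also deposited a p-value and a q-value for EtOH against 4OHT, with a status. They tested 11865 genes, and 21 tests failed. Because each condition has 1 FPKM value, no test of this work was possible, and every call was read from the authors' deposited table. Because FPKM is scaled per library, gains in abundant RNAs reduce the values of others. Depth is not stated. FPKM times locus length had a lowest step with a median of 20.7 over 22 short genes in 4OHT and 21.3 over 11 in EtOH. If that step is 1 fragment, it would mean about 48.2 and 46.9 fragments per FPKM and kb.

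From these values log2 changes with a pseudocount of 1 FPKM were computed (Python 3.11.15, pandas 2.3.3). The steps for changes and calls were run on simulated data with set changes, set q-values and no noise. That run checks the code only and says nothing about the reliability of the calls. Members and lists were chosen with earlier results of these data known. All 42 members are named, and from each other list up to 4 called genes of at least 1 FPKM with the largest change. Srf, Mkl1, Acta1, Acta2, Actc1, Actg2, Cnn2, Myl6, Pfn2, Actr3b, Arpc5l, Coro2a, Coro7, Trip6, Trip10 and Jak2 were added after their values were seen. So were Myo1c, Myo1g, Flii, Vill and Svil. Other lists of actin-linked genes are not reported here. Older symbols were matched for 7 entries through a RefSeq gene table. Shared words are 50-base stretches found on either strand in GENCODE M21 transcripts of other genes, with a limit of 10% in the alternative counts. Loci are those of the deposited table, with starts counted from 1.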

Additional observations from a re-analysis of the deposited data

How the results depend on the processing

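Counts of called members used the authors' deposited q-values. The 18 members higher at q of at most 0.05 became 10 with a ratio of at least 1.5 added, 13 at 0.01, 14 of 32 tested without members sharing over 10% of their words, and 18 of 39 without those under 5 FPKM in both conditions. The count lower was 0 in each of these. The median change of 0.29 was 0.30 with a pseudocount of 0.1 and 0.28 with 5 FPKM, 0.28 without members that share over 10% of their words, and 0.304 without Gsn. It was 0.18 when both conditions were given the 4OHT FPKM sum, where the median of all tested genes moved by -0.10 to -0.15, and 0.36 with the median of genes of at least 5 FPKM in both set to 0. Relative to all tested genes it was 0.33 and 0.36 in these. No called member changed sign under the 4 pseudocounts and scalings. The sign of 9 members that did not pass changed under a scaling, Arpc1a, Arpc1b, Capza1, Cfl1, Coro1a, Coro1c, Pfn1, Wasf2 and Wasl, so the 8 Arp2/3 members are all above 0 except under scaling to the FPKM sum. No paired analysis was possible because each condition has 1 pooled value, which also prevents leaving out a replicate. The spread between replicates is unknown here, and small differences such as that of Actb rest on the authors' test alone.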

Other observations

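Gsn was the only one of the 21 genes with a failed test that reached 100 FPKM in either condition; the median of the 21 was 11.4 FPKM in 4OHT. Of 925 tested genes that reached 100 FPKM in 4OHT or EtOH, 25 were lower in EtOH by at least the 2.46-fold of Gsn. Of those 25, 14 were called lower, and the 11 others were 9 small nucleolar RNA and 2 microRNA genes. The fold limit was taken from the values of Gsn itself, and this count gives no call for Gsn. Another gene with a failed test and a large difference, picked after its values were seen, was the kinase gene Jak2, at 11.01 and 41.8 FPKM.

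The CArG box was also searched in promoters of the other actin-linked genes listed in the report, and 11 of the 129 with a promoter in the RefSeq table, or 8.53%, held it. Of these 11, 6 were tested: Cnn2, Myl6 and Myo1e rose, and Srf, Trip6 and Trip10 did not pass. The share that rose was 12.0% over all tested genes and 29% over the 124 tested actin-linked genes, and 6 genes are too few to compare with these. Cnn2, a calponin, went from 91.0 to 168 FPKM, and Myl6, a myosin light chain, from 710 to 919 FPKM. Among all tested genes with a promoter in the table the share with a box was 1.53%.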
